A study of Mus musculus with 4 samples.

Results

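Inhibitor of DNA binding (Id) genes and BMP response genes were followed in mouse undifferentiated spermatogonia (A_undiff), the testis cells that include the spermatogonial stem cells (SSCs) and their progenitor descendants. The set was a list of 8 symbols among the 27514 genes listed in every library: the targets Id1, Id2, Id3 and Id4, the inhibitory Smads Smad6 and Smad7, and the receptors Bmpr1a and Bmpr2. All 8 were found in every library and all 8 passed the filter on low counts in each comparison. Droplet single-cell RNA-seq had been run on A_undiff sorted as E-cadherin positive, CD49f positive and c-KIT negative from C57BL/6J mice of 6 to 8 weeks. CTRL mice were untreated wild types. BU mice were wild types harvested at day 10 (D10) after a single dose of 10 mg/kg busulfan. This alkylating drug depletes A_undiff and differentiating spermatogonia. Each library pooled the cells of 3 mice, and the libraries came as a CTRL and BU pair from each of 2 experiments. Hence n = 2 libraries per group, and differences between single mice are not visible.

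BMP ligands bind a complex of type I receptors, such as BMPR1A, and type II receptors, such as BMPR2. The receptors phosphorylate SMAD1, SMAD5 and SMAD9, which enter the nucleus with SMAD4 and switch on targets. Among the best known targets are the Id genes, whose products lack a DNA-binding region and hold basic helix-loop-helix (bHLH) factors off DNA, and Smad6 and Smad7, whose products feed back to restrain the pathway. In the testis, ID4 is known as a protein of the most stem-like spermatogonia, and BMP4 from somatic cells is known to act on spermatogonia.

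The promoters of Id3, Id4 and Smad6 are shown because Id3 and Id4 are the members called between Gfra1 classes below, and Smad6 was high in a few cells with acrosome RNA. Each is the RefSeq promoter on GRCm38.p6, from 250 bases before to 50 after the start site, written 5′ to 3′ on the gene's strand. RefSeq promoters of 6 members were searched, and Id1 and Smad7 are named only. Capitals mark any of 4 motifs searched on both strands: GGCGCC (a GC-rich BMP response element), the E-boxes CAGCTG and CAGGTG (bHLH sites), and GTCTAGAC (a SMAD palindrome). These motifs do not overlap one another in the sequences printed.
Id3 (chr4:136143572-136143871, plus strand): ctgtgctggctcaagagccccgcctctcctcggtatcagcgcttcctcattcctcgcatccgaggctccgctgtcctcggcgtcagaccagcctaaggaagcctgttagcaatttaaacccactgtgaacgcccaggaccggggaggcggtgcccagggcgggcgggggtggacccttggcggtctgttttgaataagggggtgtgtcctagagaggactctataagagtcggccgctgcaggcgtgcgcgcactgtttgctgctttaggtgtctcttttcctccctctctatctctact
Id4 (chr13:48260866-48261165, plus strand): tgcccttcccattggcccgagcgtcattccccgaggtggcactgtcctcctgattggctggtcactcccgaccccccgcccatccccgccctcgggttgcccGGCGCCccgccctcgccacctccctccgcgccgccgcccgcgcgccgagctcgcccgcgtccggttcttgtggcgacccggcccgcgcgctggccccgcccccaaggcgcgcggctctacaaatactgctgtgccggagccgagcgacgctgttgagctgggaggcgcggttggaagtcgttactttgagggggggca
Smad6 (chr9:64022010-64022309, minus strand): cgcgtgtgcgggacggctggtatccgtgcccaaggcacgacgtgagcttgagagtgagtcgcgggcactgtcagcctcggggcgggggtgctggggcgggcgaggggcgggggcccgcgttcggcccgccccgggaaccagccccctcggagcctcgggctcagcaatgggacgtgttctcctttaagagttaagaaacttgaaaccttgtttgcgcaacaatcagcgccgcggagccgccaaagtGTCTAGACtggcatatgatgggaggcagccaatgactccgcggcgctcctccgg
The Id3 window held none of the motifs, the Id4 window held 1 GGCGCC and the Smad6 window held 1 GTCTAGAC. The Id2 window held 1 GGCGCC and 1 CAGCTG, and the Bmpr1a and Bmpr2 windows each held 1 GGCGCC. Among the 32544 promoters of the same length in the table, 11.9% held GGCGCC, 16.4% CAGCTG, 20.3% CAGGTG and 0.215% GTCTAGAC. The 6 windows were 59.3% to 79.3% G and C, against a median of 53% over all promoters. A match is a run of letters and was not tested as a binding site.

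The libraries held 21136369 to 53579969 unique molecular identifiers (UMIs, single captured RNA molecules), and 7493 cells had more than 1000 detected genes and less than 20% of UMIs from mt- genes (3101 and 1120 in the CTRL libraries, 2008 and 1264 in the BU libraries, experiment 1 first). Median UMIs per cell were 8066 and 9857 in experiment 1 and 30931 and 34176 in experiment 2. All 8 germ cell markers were detected in every library. A cell was called Gfra1+ when its Gfra1 level, the natural log of 1 plus 100000 times the share of UMIs, was above 2 (Gfra1 encodes the GDNF receptor of SSCs). Since this cut is 63.9 CPM (UMIs per 1000000 UMIs), 1 UMI was enough in shallow cells and more were needed in deep ones. Gfra1+ cells numbered 585 and 214 in the CTRL libraries (18.9% and 19.1%) against 865 and 528 in the BU libraries (43.1% and 41.8%), experiment 1 first. The mean share was 23.4 points larger in BU, at the smallest p that 2 against 2 libraries can give (exact permutation test, two-sided, p = 0.333). CTRL 2 and BU 2 stood apart in 2 ways. They shared 677 cell barcodes, against 0 to 11 for other pairs, with depths at least 10 times apart in every shared pair and a median ratio of shallower to deeper copy of 1.38%. Spermatid RNA was also high in experiment 2: the 6 post-meiotic markers, all detected in each library, summed to 16936 and 8646 CPM in CTRL 2 and BU 2 against 2800 and 1000 CPM in CTRL 1 and BU 1.

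The first question was how the genes differed between Gfra1+ cells, which hold the SSCs, and Gfra1-negative cells, which hold most progenitors. Id3 and Id4 were higher in Gfra1+ cells in 4 of 4 libraries, and no other member passed the test. For each library the UMIs of a class were added up, which gave 8 sums, and these entered the quasi-likelihood test of edgeR with the library as a block and Benjamini-Hochberg adjustment at 0.05. Levels are CPM after TMM scaling and a log2 fold change is Gfra1+ over Gfra1-negative. Of 16752 genes, 27% were called in this comparison, 10.1% higher and 16.9% lower in Gfra1+ cells, beside 2 of the 8 members, both higher. The share of members called was thus near that over all genes. The median log2 fold change was 0.45 over the members and -0.01 over all genes.

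Id3 (chr4:136143497-136145755, plus strand, GRCm38) encodes an Id protein induced early by BMP. Among Gfra1+ cells its level read 41.1 and 44.4 CPM in the CTRL pair (libraries 1 and 2) and 64.3 and 54.1 CPM in the BU pair. In Gfra1-negative cells of the same libraries it was 17.9, 11.7, 27.6 and 22.8 CPM. The lowest Gfra1+ library thus lay above the highest Gfra1-negative one, and the means were 51.0 ± 10.5 and 20.003 ± 6.8 CPM (SD, n = 4). The log2 fold change was 1.39 (SE 0.15, adjusted p = 0.0106 by edgeR). Id3 was higher by 1.18 to 1.88 on the log2 scale within each library.

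Id4 (chr13:48261228-48266026, plus strand) showed the same order with less spread. Gfra1+ cells had 73.3 and 87.6 CPM in the CTRL pair and 72.2 and 98.9 CPM in the BU pair. Among Gfra1-negative cells it stood at 34.2, 35.4, 34.4 and 46.2 CPM. The classes did not overlap, and the 3 lower Gfra1-negative libraries lay close together. The means were 83.0 ± 12.7 and 37.6 ± 5.8 CPM (SD, n = 4) and the log2 fold change was 1.14 (SE 0.084, adjusted p = 0.0106). The genes A330033J07Rik and Gm49291 lie on the opposite strand over Id4, and reads were not re-counted here.

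Both calls held when any shared barcode was left out, at 1.32 for Id3 (adjusted p = 0.0011) and 1.15 for Id4 (adjusted p = 6.0e-04). This setting, used again below, took out 225 cells of CTRL 2 (20.1%) and 523 cells of BU 2 (41.4%). Most of them were deep cells, with medians of 44463 and 55029 UMIs, and only 45 and 25 were shallower copies. In BU 2 they held 34481437 of 52648297 UMIs. With only the shallower copies left out, edgeR called 4503 genes (26.9%). Without CTRL 2 no gene of the whole table was called by edgeR (4314 at an unadjusted p under 0.05), and Id3 and Id4 gave 1.21 (adjusted p = 0.064) and 1.08 (adjusted p = 0.0604). DESeq2 called 5 of the 8 members with all libraries in, and 29.3% of all genes.

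**Figure D1:**
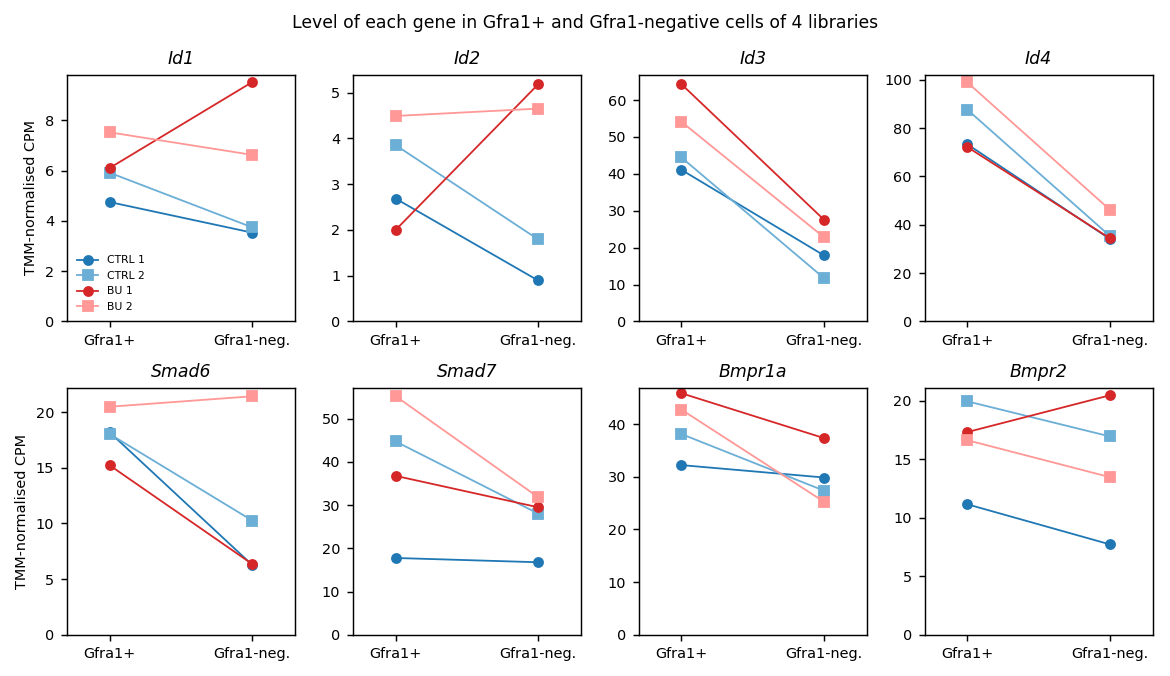
Level of each gene in CPM after TMM scaling (y axis, linear, from 0) in Gfra1+ and Gfra1-negative cells (x axis), 1 line per library, circles for experiment 1 and squares for experiment 2, blue for CTRL and red for BU. All lines for Id3 and Id4 fall from Gfra1+ to Gfra1-negative cells without overlap of the classes. Those for Id1, Id2, Smad6 and Bmpr2 rise in at least 1 library.

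The inhibitory Smads came next. SMAD6 mainly blocks BMP signals and SMAD7 blocks both BMP and TGF-β signals. Smad6 (chr9:63953076-64022059, minus strand) stood at 18.2, 18.02, 15.2 and 20.5 CPM in Gfra1+ cells of CTRL 1, CTRL 2, BU 1 and BU 2. In Gfra1-negative cells it stood at 6.3, 10.3, 6.3 and 21.4 CPM. Gfra1+ cells were thus nearly level across libraries, while Gfra1-negative cells ranged widely and BU 2 lay above its own Gfra1+ cells. The log2 fold change of 0.86 (SE 0.28) did not pass the test (adjusted p = 0.0662).

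The Gfra1-negative Smad6 signal of experiment 2 sat in a few cells. In CTRL 2, 21 cells with at least 3 Smad6 UMIs held 204 of 326 UMIs, and in BU 2, 39 such cells held 386 of 585. Cells with at least 500 CPM of the acrosome genes Acrv1, Spaca1 and Spaca3, called acrosomal here, carried Smad6 at 26.0, 97.7, 53.6 and 92.9 CPM in CTRL 1, CTRL 2, BU 1 and BU 2, from 12, 207, 8 and 357 UMIs. This class was set after the Smad6 values were seen and held 33, 82, 14 and 90 cells. Cells with at least 2% of UMIs from the post-meiotic markers, rich in protamine RNA of late spermatids, had 0 to 14.6 CPM. Smad6 was therefore high in cells with acrosome RNA in the experiment 2 libraries and low in protamine-rich cells of the same libraries.

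With acrosomal cells left out, Smad6 in Gfra1-negative cells read 5.7, 4.0, 5.9 and 9.4 CPM without TMM scaling, below the 14.7 to 19.7 CPM of Gfra1+ cells in every library. The log2 fold change was then 1.56 (SE 0.19, adjusted p = 0.0080), an alternative added after the data were seen. That fit called 20.3% of all genes. Since the acrosomal class was set after the Smad6 values were seen, this call gives no support of its own. With shared barcodes left out the Smad6 log2 fold change was 1.42 (adjusted p = 0.0015), in a fit that called 29.9% of all genes. In cells thinned to 5000 UMIs, 36.4% and 46.2% of acrosomal cells of CTRL 2 and BU 2 had a Smad6 UMI, against 4.5% and 6.8% of protamine-rich cells, 10.0% and 10.3% of Gfra1+ cells and 1.0% and 2.7% of Gfra1-negative progenitor-marked cells. These acrosomal shares are 12 of 33 and 18 of 39 cells, since 49 and 51 acrosomal cells were shallower and left out. In experiment 1 only 1 of 26 and 1 of 11 acrosomal cells had a Smad6 UMI, with exact 95% intervals of 0.097% to 19.6% and 0.23% to 41.3%. Without thinning the acrosomal shares were 27.3%, 36.6%, 50% and 48.9% in CTRL 1, CTRL 2, BU 1 and BU 2. Thinned cells all have 5000 UMIs, and shallower cells were left out (275, 113, 80 and 94 per library in the order CTRL 1, CTRL 2, BU 1, BU 2).

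**Figure D2:**
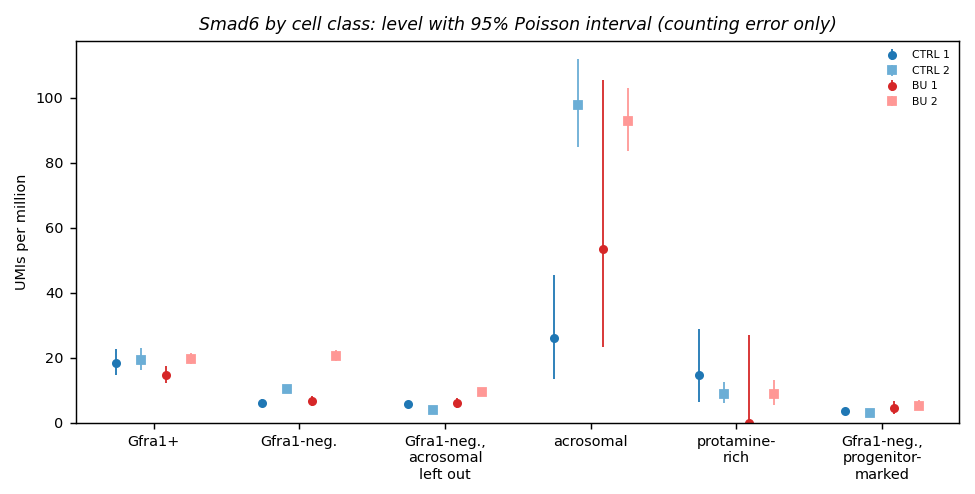
Smad6 level in CPM (y axis, linear, from 0) by cell class (x axis) in each of 4 libraries, with exact 95% Poisson intervals that cover counting error only. In the experiment 2 libraries (squares) the acrosomal cells reach 97.7 and 92.9, far above the protamine-rich cells at 8.9 and 8.8, and leaving them out brings Gfra1-negative cells to 4.0 and 9.4.

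Smad7 was at 17.8, 44.7, 36.8 and 55.2 CPM in Gfra1+ cells and at 16.8, 28.0, 29.5 and 31.8 CPM in Gfra1-negative cells, in the same library order. It was higher in Gfra1+ cells in 4 of 4 libraries, but the ranges overlapped because CTRL 1 was low in both classes. Its log2 fold change was 0.48 (SE 0.14, adjusted p = 0.0548), which did not pass the threshold. With shared barcodes left out it was 0.43 (adjusted p = 0.0214) and by DESeq2 0.51 (adjusted p = 0.0226).

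For the type I receptor Bmpr1a (chr14:34410734-34503341, minus strand), Gfra1+ cells had 32.2, 38.1, 45.9 and 42.8 CPM. Gfra1-negative cells had 29.9, 27.4, 37.3 and 25.3 CPM. Gfra1+ cells were higher in every library with overlapping ranges, at a log2 fold change of 0.42 (SE 0.13, adjusted p = 0.0609). As for Smad7, it was called with shared barcodes left out (0.40, adjusted p = 0.0224) and by DESeq2 (0.45, adjusted p = 0.0297).

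For the type II receptor Bmpr2 (chr1:59763400-59879014, plus strand), Gfra1+ cells had 11.2, 19.95, 17.3 and 16.6 CPM and Gfra1-negative cells 7.7, 16.95, 20.5 and 13.5 CPM. The difference had no common direction in the libraries (log2 fold change 0.20, SE 0.16, adjusted p = 0.39). Gm17110 overlaps Bmpr1a on the opposite strand and Gm38125 overlaps Bmpr2 on the same strand.

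Id1 (chr2:152736251-152737410, plus strand) and Id2 (chr12:25093799-25097140, minus strand) were sparse in these cells. Id1 had 4.8, 5.9, 6.1 and 7.5 CPM in Gfra1+ cells and 3.5, 3.7, 9.5 and 6.6 CPM in Gfra1-negative cells (log2 fold change 0.15, SE 0.26, adjusted p = 0.70). Id2 had 2.7, 3.9, 2.0 and 4.5 CPM in Gfra1+ cells and 0.90, 1.8, 5.2 and 4.6 CPM in Gfra1-negative cells (0.24, SE 0.49, adjusted p = 0.74). Neither gene separated the classes.

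The level of Id2 was far higher in somatic cells than in all other cells together. Somatic cells, set as cells with more UMIs of 20 somatic than of 8 germ cell markers, numbered 9, 26, 23 and 57, and carried Id2 at 274, 107, 265 and 134 CPM in CTRL 1, CTRL 2, BU 1 and BU 2. All other cells had 0.83, 0.61, 2.8 and 1.8 CPM. The Id2 level was thus far higher in somatic cells of every library. In CTRL 1 it rests on few UMIs. There 33.3% of the 9 somatic cells had an Id2 UMI, and 1 of them held 8 UMIs. Somatic cells were few, at 0.29%, 2.3%, 1.1% and 4.5% of passing cells. A high level is not a share of all Id2 UMIs, and that share is not given. Id1 read 0, 114, 24.1 and 50.6 CPM in somatic cells and Id3 read 0, 245, 60.3 and 227 CPM, so that these genes, too, were high in somatic cells of CTRL 2 and BU 2. In somatic cells of CTRL 1 and BU 1, 3 UMIs amount to 82.3 and 36.1 CPM. The Id1 values there and the Id3 value of CTRL 1 lie below these floors and do not show absence. With somatic cells left out, Id2 turned to a log2 fold change of -1.24 (SE 0.42, adjusted p = 0.0719), while Id3 and Id4 were 1.42 and 1.15 and stayed called (both adjusted p = 0.00998).

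Finer classes set Id3 and Id4 beside progenitor markers. A cell was progenitor-marked when its level of Neurog3, Sox3, Rarg or Upp1 was above 2. The values in this paragraph are CPM without TMM scaling, a description with counting error only. Id3 stood at 51.1, 65.3, 65.5 and 54.7 CPM in Gfra1+ cells without a progenitor marker, and at 31.9, 29.4, 50.1 and 36.0 CPM in Gfra1+ cells with one. Among Gfra1-negative cells it stood at 47.1, 38.3, 48.1 and 37.6 CPM in unmarked germ cells and at 12.6, 7.6, 11.96 and 14.3 CPM in progenitor-marked cells. The unmarked germ cells leave out somatic, protamine-rich, acrosomal and Kit-level cells (Kit level above 2), and the progenitor-marked cells leave out none of these. This filter took the unmarked Gfra1-negative cells from 533, 303, 641 and 508 to 477, 126, 489 and 297. Unmarked Gfra1+ cells include the somatic cells that passed the Gfra1 cut. Progenitor-marked cells were lower in both Gfra1 classes of every library. Among Gfra1-negative cells this sets a filtered class beside an unfiltered one.

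Id4 had the same order in the Gfra1 classes. It stood at 90.3, 113.9, 72.9 and 96.4 CPM in unmarked and 57.9, 73.7, 58.7 and 88.1 CPM in marked Gfra1+ cells. Among Gfra1-negative cells it was 70.7, 91.7, 54.3 and 76.8 CPM in the filtered unmarked germ cells. In the unfiltered progenitor-marked cells it was 27.4, 33.5, 21.6 and 30.3 CPM. Cells with a Kit level above 2, a mark of differentiating spermatogonia, had Id4 at 15.1, 13.3, 18.8 and 28.8 CPM and Id3 at 15.1, 1.0, 21.8 and 15.1 CPM, somatic cells left out. Among the 4 classes set by Gfra1 and the progenitor markers, both genes were highest in unmarked Gfra1+ cells in every library. This ranking sets a class that keeps its somatic cells beside the filtered unmarked Gfra1-negative class. The Id3 gap between these classes was small in CTRL 1. Kit-level cells, of which CTRL 1 and CTRL 2 had 36 and 34, had less Id4 than Gfra1-negative progenitor-marked cells in every library, while for Id3 they lay on either side of them. The Kit-level CTRL values rest on few UMIs, since 3 UMIs amount to 9.1 and 3.1 CPM there.

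**Figure D3:**
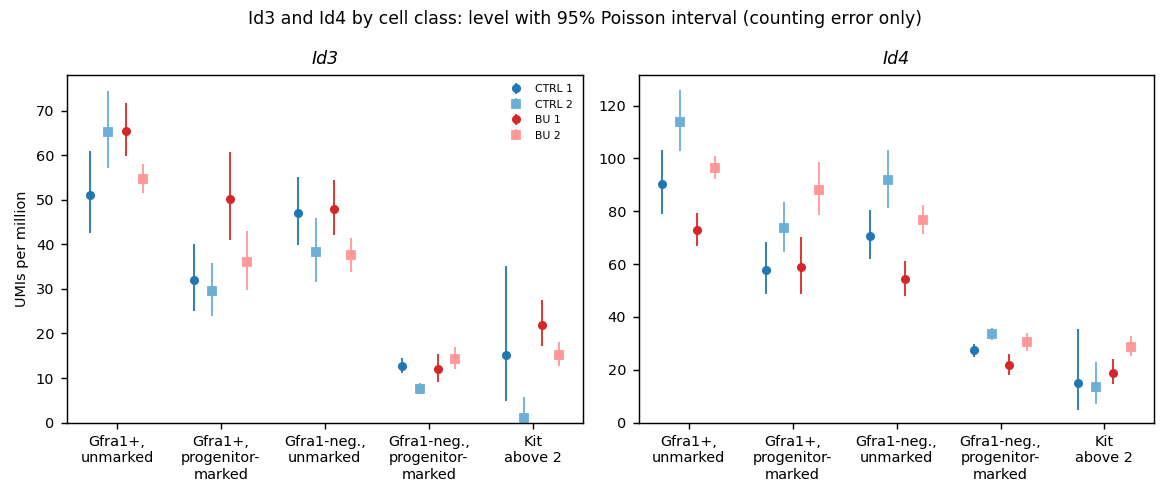
Id3 and Id4 in CPM (y axes, linear, from 0) by cell class (x axis) in each of 4 libraries, with exact 95% Poisson intervals for counting error only. Gfra1-negative progenitor-marked cells lie at 7.6 to 14.3 for Id3 and 21.6 to 33.5 for Id4, below the unmarked cells of either Gfra1 class in every library. The unmarked Gfra1-negative class leaves out somatic, protamine-rich, acrosomal and Kit-level cells, and the progenitor-marked class does not.

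The order of the Gfra1 classes was the same at equal depth. In cells thinned to 5000 UMIs, an Id3 UMI was seen in 14.8%, 21.1%, 21.6% and 20.6% of Gfra1+ cells and in 7.7%, 4.6%, 10.5% and 9.6% of Gfra1-negative cells. Protamine-rich cells had an Id3 UMI in 0 of 41, 0 of 89, 1 of 9 and 2 of 59 cells. By the floor of 3 counts, the counts of 0 allow a share of cells with a UMI at this depth of up to 7.32% and 3.37%. The exact 95% upper bounds are 8.60% and 4.06%. Without thinning 2.2%, 0.93%, 10.0% and 10.7% of protamine-rich cells had an Id3 UMI. An Id4 UMI was seen in 29.4%, 37.3%, 23.8% and 34.5% of Gfra1+ cells against 14.2%, 13.5%, 13.5% and 18.6% of Gfra1-negative cells. Protamine-rich cells had an Id4 UMI in 0 of 41, 4 of 89, 0 of 9 and 3 of 59 cells, and in 11.1%, 17.8%, 10.0% and 24.0% without thinning. Median depths of Gfra1+, Gfra1-negative and protamine-rich cells were 7258, 8223 and 11844 UMIs in CTRL 1 and 38419, 31498 and 23489 UMIs in BU 2. Without thinning, the shares with Id4 were 42.2%, 82.7%, 44.7% and 86.6% of Gfra1+ cells, so the gap between experiments shrinks at equal depth.

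Id3 and Id4 showed no common pattern of joint detection. Among thinned Gfra1+ germ cells, 33.8%, 45.9%, 18.03% and 33.7% of cells with an Id3 UMI had an Id4 UMI. Among those without an Id3 UMI the share was 28.7%, 33.7%, 25.5% and 35.3%. The direction differed between libraries, higher in both CTRL and lower in both BU libraries, and with 17, 26, 31 or 33 cells holding both genes it was not tested.

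The next question was what differed at D10 after BU. No member passed the test in all cells, in Gfra1+ cells or in Gfra1-negative cells, and no gene of the whole table did. With condition as the only term, edgeR called 0% of 17354, 13632 and 16997 genes in these classes (926, 583 and 805 at an unadjusted p under 0.05). DESeq2 called 119, 15 and 59 genes. With the experiment as a replicate block edgeR called 1.49% of genes in all cells (0.64% higher, 0.847% lower), 0.066% in Gfra1+ cells (0.0367% higher, 0.0293% lower) and 0% in Gfra1-negative cells, again with no member. On simulated counts the fit without the block recovered none of the genes changed by 1 or 2 on the log2 scale in these 3 comparisons, so its count of 0 has little weight. In the same order, the blocked fit recovered 91%, 92% and 79% of genes changed by 2. Of those changed by 1 it recovered 28%, 35% and 8%. All cells of a library mix classes whose shares differed between CTRL and BU, and a shift in these shares cannot be told apart there from a change within cells.

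Over all cells each member had a positive log2 fold change (BU over CTRL), with a median of 0.63 against 0.07 over all genes. Id3 stood at 22.3 and 17.4 CPM in CTRL 1 and CTRL 2 and at 44.3 and 36.0 CPM in BU 1 and BU 2. Both BU libraries lay above both CTRL libraries, at 19.9 ± 3.5 against 40.1 ± 5.9 CPM (SD, n = 2). The log2 fold change was 1.01 (SE 0.32, adjusted p = 0.89), and 1.02 (SE 0.24, adjusted p = 0.0889) with the replicate block. When somatic, protamine-rich, acrosomal and Kit-level cells were all left out, an alternative added after the data were seen, the blocked fit called Id3 at 1.13 (SE 0.28, adjusted p = 0.0034). That fit called 10.6% of all genes, so 1 of 8 members is near the share over all genes, and without the block it called 0 genes of the same cells (1693 at an unadjusted p under 0.05). With shared barcodes left out the blocked value was 1.21 (adjusted p = 0.28), and no gene of the table was called (1928 at an unadjusted p under 0.05). That setting also removes most UMIs of BU 2, and leaving out only the shallower copies was not run with the block.

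Within classes the Id3 difference was smaller. In Gfra1+ cells it was 0.45 (SE 0.27, adjusted p = 1.0), from the levels given above, and 0.64 and 0.28 within experiments 1 and 2. In Gfra1-negative cells it was 0.79 (SE 0.40, adjusted p = 1.0), and 0.61 and 0.93 within the experiments. The direction was the same in both experiments and both classes. With the replicate block Id3 gave 0.44 (SE 0.22, adjusted p = 0.47) in Gfra1+ and 0.82 (SE 0.30, adjusted p = 0.32) in Gfra1-negative cells.

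Id4 hardly differed in Gfra1+ cells, where the log2 fold change was 0.07 (SE 0.30) with values of -0.02 and 0.17 within experiments 1 and 2. Over all cells it read 41.7 and 44.1 CPM in the CTRL and 51.7 and 68.1 CPM in the BU libraries (0.48, SE 0.30), and in Gfra1-negative cells the difference was 0.24 (SE 0.33). The all-cell difference of Id4 was thus larger than that in either class. The share of Gfra1+ cells, in which Id4 is high, was 23.4 points larger in the BU libraries.

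Id2, Id3 and Id1 had the 3 largest all-cell values. Id2 read 1.2 and 2.1 CPM in the CTRL and 3.9 and 4.4 CPM in the BU libraries (1.302, SE 0.50). Id1 read 3.8 and 4.1 CPM in the CTRL and 8.2 and 6.8 CPM in the BU libraries (0.94, SE 0.37). With the replicate block the adjusted p was 0.115 for Id2 and 0.162 for Id1, and with shared barcodes also left out the blocked values were 2.10 (adjusted p = 0.278) and 1.25 (adjusted p = 0.315). In Gfra1-negative cells Id2 gave 1.89 (SE 0.58) and Id1 1.17 (SE 0.44), while in Gfra1+ cells they gave -0.01 (SE 0.56) and 0.33 (SE 0.36). With the replicate block the Gfra1-negative values were 1.92 (SE 0.47, adjusted p = 0.20) and 1.14 (SE 0.37, adjusted p = 0.27). The Gfra1+ values with the block were -0.05 (SE 0.42) and 0.33 (SE 0.34). Cells with a Kit level above 2, somatic cells left out, numbered 36 and 34 in CTRL and 322 and 156 in BU. They had Id2 at 6.0, 3.1, 10.8 and 7.6 CPM and Id1 at 9.1, 10.2, 14.3 and 9.8 CPM in the order CTRL 1, CTRL 2, BU 1, BU 2. Their CTRL values rest on few UMIs, since 3 UMIs amount to 9.1 and 3.1 CPM there. When somatic, protamine-rich, acrosomal and Kit-level cells were left out, the all-cell value of Id2 was 0.58 and that of Id1 0.93. The part of each of these cell classes in the Id2 value was not tested one by one.

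Among the inhibitory Smads, Smad7 read 17.05 and 30.4 CPM in CTRL and 33.3 and 41.1 CPM in BU over all cells (0.65, SE 0.41). The log2 fold change was 0.53 (SE 0.50) in Gfra1+ and 0.48 (SE 0.40) in Gfra1-negative cells. With the replicate block these were 0.63 (SE 0.26, adjusted p = 0.37) and 0.52 (SE 0.31, adjusted p = 0.50). Smad6 read 8.5 and 11.4 CPM in CTRL and 10.4 and 20.3 CPM in BU over all cells (0.62, SE 0.47), with overlap. In Gfra1+ cells Smad6 gave -0.04 (SE 0.31).

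Neither receptor passed the test. Bmpr1a read 30.5 and 28.7 CPM in CTRL and 41.9 and 32.2 CPM in BU over all cells (0.32, SE 0.31). Bmpr2 read 8.4 and 17.1 CPM in CTRL and 19.5 and 14.4 CPM in BU (0.41, SE 0.48). Bmpr2 went opposite ways in the experiments, 1.17 in experiment 1 and -0.24 in experiment 2, the only member to do so over all cells.

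**Figure D4:**
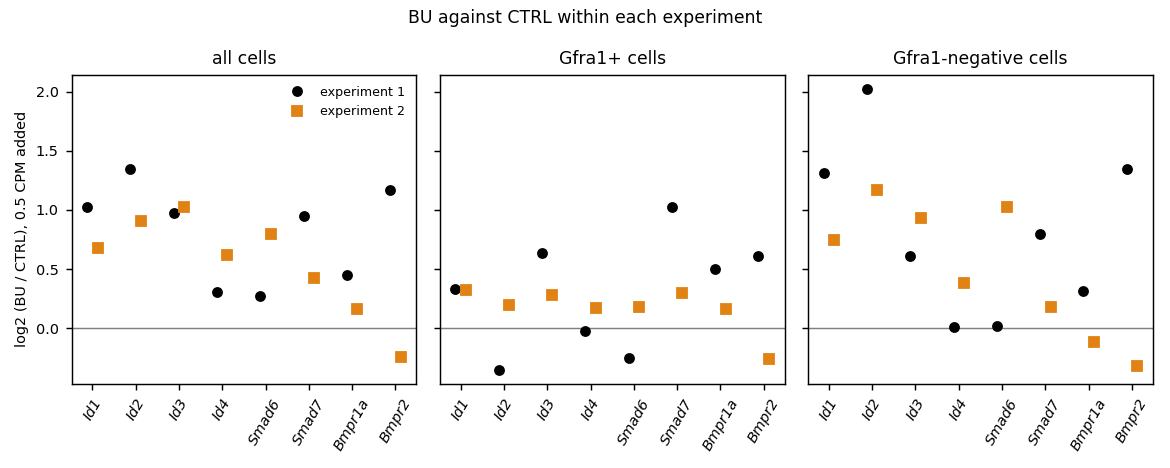
Log2 ratio of BU over CTRL (y axis, levels in CPM after TMM scaling with 0.5 CPM added) for each gene (x axis) within experiment 1 (circles) and experiment 2 (squares), in all cells, Gfra1+ cells and Gfra1-negative cells. Id3 lies above 0 in all 3 panels in both experiments, Id4 near 0 in Gfra1+ cells, and Bmpr2 on opposite sides of 0 in all 3 panels.

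Whether the BU difference itself differed between Gfra1+ and Gfra1-negative cells was tested as an interaction. No gene of 16752 was called by edgeR (0%, 807 at an unadjusted p under 0.05), nor by DESeq2 (217 at an unadjusted p under 0.05). Id2 had the largest member value, -1.94 (SE 0.63, unadjusted p = 0.031, adjusted p = 0.94), and Id1 gave -0.76 (SE 0.44, adjusted p = 0.94). A different BU response of Id2 in the classes was therefore not shown. On simulated counts the interaction fit recovered 36% of genes changed by 2 on the log2 scale and 1% of those changed by 1. Calling no gene hence has little weight here.

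Gfra1+ cells were last split by 8 mitotic markers into cycling cells, with at least 500 CPM of their sum, and non-cycling cells. There were 295, 150, 672 and 389 cycling and 290, 64, 193 and 139 non-cycling cells, and 107, 44, 90 and 52 cells lay within 400 to 600 CPM. Of 12615 genes, 22.6% were called in this comparison, 10.2% higher and 12.4% lower in cycling cells. Of the 8 members, Id2 and Id3 were called, both lower in cycling cells, which is near the share over all genes. Without BU 2, 526 genes and no member were called, and without CTRL 2, 1532 genes.

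Id2 read 5.2, 16.8, 4.4 and 22.9 CPM in non-cycling cells and 0.79, 0, 1.4 and 1.1 CPM in cycling cells (log2 fold change -3.92, SE 0.63, adjusted p = 0.0028). The classes did not overlap. Id2 passed the filter on low counts only through the non-cycling sums, where it is high, so the call adds no support to this difference. Somatic marker RNA moved with this result: the 20 somatic markers summed to 53.1, 622, 96.6 and 819 CPM in non-cycling and 22.3, 27.2, 20.9 and 26.3 CPM in cycling Gfra1+ cells. With somatic cells left out, Id2 in non-cycling cells was 1.4, 0.72, 0.57 and 0.63 CPM, close to the cycling cells, and too low to be tested.

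Id3 read 46.5, 84.0, 69.4 and 76.3 CPM in non-cycling and 39.8, 33.6, 61.4 and 49.8 CPM in cycling cells (-0.59, SE 0.17, adjusted p = 0.0333), lower in cycling cells in 4 of 4 libraries. With somatic cells left out the value was -0.17 (SE 0.13, adjusted p = 0.41), so the call was lost. It was lost in 8 of 21 alternatives in all (adjusted p from 0.101 to 0.433 in these), among them those without CTRL 2 and without BU 2 and both other mitotic cuts. Id4 read 79.3, 98.4, 68.3 and 104.7 CPM in non-cycling and 74.1, 86.9, 71.3 and 97.5 CPM in cycling cells (-0.08, SE 0.085, adjusted p = 0.52). The ranges of Id4 overlapped.

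Id1 read 3.3, 12.6, 1.7 and 11.2 CPM in non-cycling and 6.3, 4.0, 7.0 and 6.8 CPM in cycling cells, with opposite directions in the experiments (-0.21, SE 0.47, adjusted p = 0.78). With somatic cells left out, non-cycling cells had 3.3, 2.9, 1.1 and 1.9 CPM and cycling cells 6.0, 4.3, 6.9 and 6.6 CPM without TMM scaling. Id1 was then higher in cycling cells in 4 of 4 libraries, at a log2 fold change of 1.43 (SE 0.36, adjusted p = 0.0106), in a fit that called 19.3% of all genes and 1 of the members. Leaving out somatic cells thus reversed the direction of Id1. In that fit Id1 passed the filter on low counts only through the cycling sums, where it is high. The call thus adds no support to this difference. The non-cycling values rest on few UMIs, since 3 UMIs amount to 1.4, 2.2, 1.7 and 0.95 CPM in these cells. The BU 1 value lay below this floor. Smad7 gave 0.39 (SE 0.13, adjusted p = 0.0591) and passed the threshold in 7 of 21 alternatives (adjusted p from 0.0060 to 0.0485 in these). The other values were Smad6 -0.36 (SE 0.17, adjusted p = 0.157), Bmpr2 0.32 (SE 0.18, adjusted p = 0.227) and Bmpr1a 0.11 (SE 0.11, adjusted p = 0.539).

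**Figure D5:**
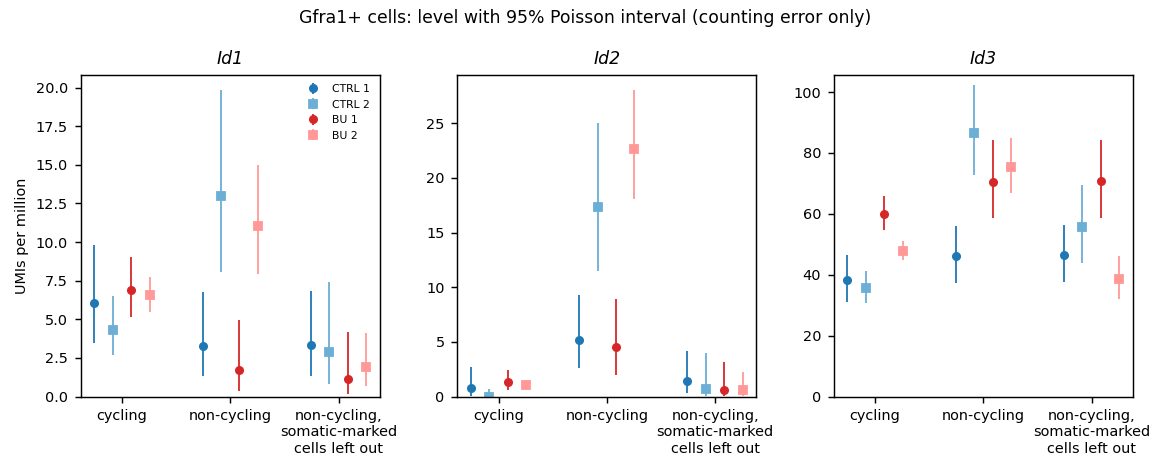
Id1, Id2 and Id3 in CPM (y axes, linear, from 0) in cycling Gfra1+ cells, non-cycling Gfra1+ cells, and non-cycling Gfra1+ cells with somatic-marked cells left out, in each of 4 libraries, with exact 95% Poisson intervals for counting error only. The high Id2 and Id1 values of non-cycling cells in CTRL 2 and BU 2 are gone once somatic-marked cells are left out, and Id1 then lies below the cycling cells.

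Other genes of the pathway were taken from fixed lists, members left out. Between Gfra1+ and Gfra1-negative cells, 1 of 15 tested ligands was higher and 2 lower, 0 and 2 of 12 receptors, 0 and 0 of 6 signalling Smads, 2 and 2 of 16 inhibitors, 4 and 3 of 10 targets, and 3 and 6 of 18 bHLH factors and other Id partners. These shares stand beside 10.1% higher and 16.9% lower over all genes. The lower counts include genes so sparse in Gfra1+ cells that they passed the filter only through Gfra1-negative sums. None of the signalling Smads was called, although the targets held 7 called genes of 10 in both directions.

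The 6 called list genes with the largest log2 fold change were all sparse. The TGF-β family ligands Lefty2 (-2.06, SE 0.41, adjusted p = 0.0203) and Bmp8b (-1.68, SE 0.34, adjusted p = 0.0210) and the bHLH repressor Msc (-2.52, SE 0.58, adjusted p = 0.0280) were lower in Gfra1+ cells, each under 3 CPM in any sum. Myc was higher (1.71, SE 0.48, adjusted p = 0.0446), at 1.0, 1.4, 1.8 and 2.4 against 0.14, 0.16, 0.92 and 1.1 CPM. The BMP antagonist Sostdc1 had 0 UMIs in Gfra1+ cells of all 4 libraries and 2, 27, 0 and 29 in Gfra1-negative cells, of which 26 and 29 in CTRL 2 and BU 2 were in acrosomal cells. Dlx5, a homeobox target of BMP, had 20, 73, 2 and 106 UMIs in Gfra1-negative cells, and 11, 41, 2 and 75 UMIs were in acrosomal cells. With acrosomal cells left out Dlx5 was not called (-2.60, adjusted p = 0.108) and Sostdc1 could not be tested. Levels of Bmp8b, Msc, Sostdc1 and Dlx5 in Gfra1+ cells were at most 0.55 CPM, and those of Lefty2 at most 0.83 CPM. All of these genes passed the filter on low counts through Gfra1-negative sums, so their calls as lower give no support of their own.

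More abundant list genes, named after their values were seen, included Fst, whose product follistatin traps activins and some BMPs. It read 54.5, 101, 98.6 and 142.6 CPM in Gfra1+ and 25.5, 31.0, 38.8 and 42.1 CPM in Gfra1-negative cells (1.48, SE 0.13, adjusted p = 0.0106). The ligand Tgfb1 read 26.8, 19.8, 48.0 and 59.0 against 13.5, 9.75, 23.1 and 28.5 CPM (1.03, SE 0.095, adjusted p = 0.0106). Fst did not overlap between the classes, and Tgfb1 did through its BU libraries but was higher in Gfra1+ cells of every library. Hes1, a bHLH repressor, rose by 0.83 (SE 0.14, adjusted p = 0.0163), while the germline bHLH factor Sohlh1 fell by 0.70 (SE 0.069, adjusted p = 0.0106) and Rgma, a BMP co-receptor, fell by 1.29 (SE 0.28, adjusted p = 0.0238) in Gfra1+ cells.

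Between BU and CTRL no list gene was called without the block. With the replicate block, over all cells, Junb rose by 1.95 (SE 0.29, adjusted p = 0.0325), and Rgma (-1.82, SE 0.28, adjusted p = 0.0348), Sohlh1 (-1.01, SE 0.17, adjusted p = 0.0466) and Neurog3 (-2.58, SE 0.27, adjusted p = 0.0205) fell. Neurog3 is a bHLH factor of progenitors, and JUNB is an immediate early factor and a target of TGF-β family signals. In this fit, which called 0.64% of genes higher and 0.847% lower, 5 of 6 progenitor markers were lower and 3 of 8 SSC markers higher in BU. With shared barcodes left out the blocked fit called no gene and gave each of the 4 list genes an adjusted p of 0.278. That setting also removes most UMIs of BU 2.

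Between cycling and non-cycling Gfra1+ cells, the 6 largest called list genes were all lower in cycling cells: Nbl1 (-5.04), Tgfb2 (-4.72), Amhr2 (-3.56), Bmp4 (-2.66), Bmp1 (-2.57) and Bmpr1b (-1.91). In somatic cells Nbl1, a secreted BMP antagonist, stood at 576, 507, 1386 and 650 CPM and Bmp4 at 220, 126, 193 and 180 CPM, from 21, 294, 115 and 668 UMIs and from 8, 73, 16 and 185 UMIs. With somatic cells left out, Nbl1, Tgfb2, Bmp4 and Bmp1 were too low to be tested, and Bmpr1b (-0.53, adjusted p = 0.236) and Amhr2 (-0.91, adjusted p = 0.0723) were not called. Nbl1, Tgfb2, Bmp4 and Bmp1 thus passed the filter on low counts only through non-cycling sums that held somatic cells. Their calls as lower in cycling cells give no support of their own.

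For each member the genes with the most similar pattern were found by the correlation of log2 CPM (1 added) over the 8 sums, among 9205 or 9206 genes with a mean of at least 10 CPM. The sums come in pairs from 4 libraries and share depth and experiment, so the values are a description. For Id3 the nearest were Barhl2 (r = 0.991) and Cdh3 (0.991), and for Id4 Zfp330 (0.989) and Mcts1 (0.985). For Smad6 they were Dalrd3 (0.945) and Gm26782 (0.905), and for Smad7 Drosha (0.993) and Nol11 (0.993). For Bmpr1a they were Crlf3 (0.976) and Tiparp (0.973), and for Bmpr2 Syap1 (0.970) is given. For Id1 they were Tdg (0.975) and Twsg1 (0.969), a secreted BMP modulator on the inhibitor list, and for Id2 Adi1 (0.959) and Eif5a2 (0.956). None of the nearest genes was another member.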

How the data were processed

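Single-cell RNA-seq was analysed from the UMI counts that the authors deposited, 1 count matrix per library. The file headers name Cell Ranger 3.0.2, and the study's methods name mm10 (GRCm38), whereas the submitters' processing notes list GRCm39. The labels give kit v2 for experiment 1 and v3.1 for experiment 2, and the study's methods give v2 throughout. Experiment 1 lists 27998 genes and experiment 2 lists 31053, and the 27514 shared genes were used.

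Groups came from the sample labels. Cells with more than 1000 genes and less than 20% of UMIs from 13 mt- genes were kept (7493 cells). Predicted doublets (132, scored in each library at a rate of 0.8% per 1000 cells) were kept and were left out as an alternative. UMIs were summed per library and class, and edgeR 4.0.16 (glmQLFit, TMM, filterByExpr) in R 4.3.3 was run on all genes with Benjamini-Hochberg adjustment at 0.05. BU was compared with CTRL with condition as the only term, with the experiment as a replicate block as the alternative. Samples of the same experiment deviated together (correlations of 0.779, 0.664 and 0.758), and with 2 pairs this is a hint only. Gfra1 classes and cycling classes were compared within libraries. DESeq2 1.42.0, other scalings, no filter, left-out libraries and left-out cell classes were the alternatives. The leaving out of acrosomal cells, of 4 classes together and of shared barcodes, and the replicate block with cells left out, were added after the data were seen. Tests were checked on simulated counts with 200 changed genes. Poisson and binomial intervals at 95% and floors of 3 counts cover counting error only. Since n = 2 pools per group, p-values of BU against CTRL without the block measure the spread between pools of a group. With the replicate block the spread between experiments is taken out. In comparisons within libraries, p-values measure how the difference within a library varies over the 4 libraries.

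The members and lists were chosen with earlier results of these data known. List genes were named as the 6 called genes with the largest log2 fold change per comparison, and members always. Fst, Tgfb1, Hes1, Sohlh1 and Rgma were named outside this rule, after their values were seen. Promoters came from RefSeq (GRCm38.p6) and gene positions from GENCODE M21. Levels were not compared between genes. One of the nearest genes by correlation is not reported here.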

Additional observations from a re-analysis of the deposited data

How the results depend on the processing

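Depth limits Id1 and Id2, which gave few UMIs in germ cells, and n = 2 pools per group limits every BU comparison. The cause of each change below was not tested.

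For BU against CTRL, edgeR called 0 genes in each class. With the replicate block it called 258 genes in all cells, 9 in Gfra1+ cells and 0 in Gfra1-negative cells, and with somatic cells also left out 285 in all cells. With the block and shared barcodes left out it called 1 in Gfra1+ cells. With the block and somatic, protamine-rich, acrosomal and Kit-level cells left out it called 1684 (10.6% of all genes; 1 member, Id3), 66 and 9. DESeq2 called 119, 15 and 59, no filter gave 50 in Gfra1+ cells, and leaving out 1 library gave 0 to 96, 0 to 25 and 0 to 32. In Gfra1+ cells the log2 fold change reversed for Id4 (-0.031) and Bmpr2 (-0.0080) with total UMIs only, for Id2 with no filter (0.022), any Gfra1 UMI (0.40), thinning (0.045), shared barcodes left out (1.21) and these with the block (0.89), for Smad6 with any Gfra1 UMI (0.047) and thinning (0.071), and for Bmpr2 with thinning (-0.026). In Gfra1-negative cells any Gfra1 UMI reversed Id4 (-0.098) and Bmpr1a (-0.066). Leaving out 1 library gave, in all cells, Bmpr2 -0.037 to 1.01 and Bmpr1a -0.029 to 0.50. In Gfra1+ cells it gave Id4 -0.18 to 0.28, Bmpr2 -0.24 to 0.59, Id2 -0.74 to 0.43 and Smad6 -0.28 to 0.16. In Gfra1-negative cells it gave Bmpr2 -0.083 to 1.14, Bmpr1a -0.42 to 0.42 and Smad6 -0.34 to 1.15.

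For Gfra1+ against Gfra1-negative cells, 4525 genes and 2 members were called. The count was 2601 with any Gfra1 UMI, 2349 with the 4 classes left out and 0 to 4352 without 1 library (648 without BU 2, 0 without CTRL 2). Members called were 5 by DESeq2 (29.3% of all genes), 4 with RLE size factors (28.3%), 5 with shared barcodes left out (29.9%) and 0 to 3 without 1 library. Id2 reversed with somatic cells (-1.24) or the 4 classes (-1.31) left out and with any Gfra1 UMI (-0.23), as did Id1 (-0.12). Without 1 library Id2 ranged from -0.061 to 0.85 and Id1 from -0.032 to 0.51.

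For the interaction, 3 genes were called with shared barcodes left out. Any Gfra1 UMI reversed Id3 (0.044) and Id4 (0.15), and leaving out the 4 classes Smad7 (-0.00018). Without 1 library Smad7 ranged from -0.14 to 0.49, Id3 from -0.71 to 0.046, Smad6 from -1.21 to 0.094 and Bmpr1a from -0.0035 to 0.48.

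For cycling against non-cycling cells, 2845 genes and 2 members were called. With Gfra1 set after thinning it was 770 and 1 member, at 300 CPM 1521 and 1, at 1000 CPM 4292, and with shared barcodes left out 1846. With somatic cells or the 4 classes left out 1 member was called, Id1 (19.3% and 17.8% of all genes). With somatic cells left out, Id1 passed the filter on low counts only through the cycling sums, so that call adds no support. At 1000 CPM the 2 members were Id2 and Smad7, and Id3 was also lost with any Gfra1 UMI. Without 1 library the range was 526 to 2839, and 0 to 2 members. Id1 reversed by DESeq2 (0.024), at 1000 CPM (0.47) and with somatic cells (1.43) or the 4 classes (1.62) left out, and Id4 with any Gfra1 UMI (0.067) and at 1000 CPM (0.19). Without 1 library Id1 ranged from -0.58 to 0.28.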
